A study of Mus musculus with 6 samples.

Results

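The nuclei described here carried RNA of Otof, Chst9 and Foxp2 in the sorted, NeuN-negative nuclei of the young mouse brain. Each barcode was kept if it held UMIs (unique molecular identifiers, 1 per counted RNA molecule) of at least 300 genes and at most 1% of its UMIs came from mitochondrially encoded genes. A kept nucleus was then a member if it held at least 3 UMIs of Otof and Chst9 together, at least 3 of Foxp2, at most 2 of the oligodendrocyte genes Mog and Mag together and 0 of the microglial gene Csf1r. There were 852 such nuclei among 60724 kept. The choice rests on measured UMIs, so the levels of these 6 genes are a description of the class and carry no test.

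C57BL/6 S-56 mice received 5 µl of lysophosphatidic acid (LPA, 18:1), a signalling lipid of blood plasma, or its vehicle, a solution of bovine serum albumin, into the right lateral ventricle at postnatal day 7. At postnatal day 15, whole brains without olfactory bulbs and cerebellum were frozen, their nuclei were stained for NeuN, and the unstained nuclei were sequenced in 3 LPA and 3 vehicle libraries. The LPA dose of these libraries is not given in the labels used here. The libraries held between 48852970 and 65688644 UMIs. Members had a median of 5065 to 7517.5 UMIs per nucleus across libraries, against 3860 to 4838 for all kept nuclei. The sort was made to remove neurons, so the neurons seen here are those that passed the gate, and no share below is a share of the neurons of the brain.

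Spiny projection neurons of the striatum are GABA-releasing cells. Most belong to the direct pathway, with the dopamine receptor Drd1 and the peptide precursors Tac1 and Pdyn, or to the indirect pathway, with Drd2, Adora2a and Penk. Single-cell surveys describe another, less common projection type, here called the third striatal type, that expresses Otof, Casz1, Cacng5, Pcdh8 and Tshz1. Foxp2 is a forkhead transcription factor found in striatal and other forebrain neurons. Otof encodes otoferlin, a calcium sensor of vesicle release known from inner hair cells, and Chst9 encodes a sulfotransferase that acts on N-acetylgalactosamine. Vwc2l, a further marker of the class, encodes a secreted protein related to the bone morphogenetic protein (BMP) antagonist Vwc2.

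Members were set beside 2 classes of striatal projection neurons from the same libraries. Drd1 nuclei, 539 in all, held at least 2 UMIs of Drd1, at least 5 of Rarb and Pde10a together and at most 2 of Otof and Chst9 together. Drd2 nuclei, 1583 in all, held at least 2 UMIs of Drd2 and at most 1 of Drd1, with the same limits on the other genes. Rarb and Pde10a, a retinoic acid receptor and a phosphodiesterase, mark striatal projection neurons. Neither comparison class had a limit on Mog, Mag or Csf1r, and this difference in the rules is followed through below. Levels are counts per 1000000 UMIs (CPM) of the summed nuclei of a class in 1 library, scaled by the trimmed mean of M values (TMM) unless called unscaled, and each library came from 1 brain. Fold changes, their SEs and adjusted p-values came from edgeR's quasi-likelihood test with Benjamini-Hochberg adjustment over all genes tested. Calls needed an adjusted p below 0.05 together with a change of 0.25 or more, in either direction, on the log2 scale.

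The genes of the gate separated the classes by construction. Otof lay at 402 to 503 CPM in members (median of 6 libraries 434), at 28.1 to 43.8 in Drd1 nuclei (median 32.6) and at 8.89 to 11.2 in Drd2 nuclei. Chst9 lay at 219 to 363 in members and at 3.83 to 10.7 in Drd1 nuclei. Foxp2 lay at 1759 to 2043 in members, at 824 to 1032 in Drd1 nuclei and at 280 to 384 in Drd2 nuclei, so that Drd1 nuclei were between the others for Foxp2. Many members carried only one of the sulfotransferase and the ferlin. Between 33.3% and 46.3% of the members of a library had no Chst9 UMI, 6.87% to 12.4% had no Otof UMI, and 44.1% to 58.0% had both.

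The 245 members with exactly 3 UMIs of Otof and Chst9 together, just inside the limit, had a mean of 335 unscaled CPM of Vwc2l and 469 of Tshz1. The 369 nuclei with exactly 2, just outside and otherwise passing, had 353 and 438, so nuclei on either side of this limit held similar levels of both markers. At the Foxp2 limit, the 38 nuclei with 3 Foxp2 UMIs had 214 of Vwc2l (72 UMIs) and 197 of Tshz1, and the 38 nuclei with 2 had 55.4 (18 UMIs) and 195. Vehicle replicate 1 alone gave 39 of the 72 Vwc2l UMIs, and the 6 libraries ranged from 0 to 688. Meis2 lay at 962 inside this limit and 1276 outside it. Slc1a2, an astrocyte gene, lay at 1205 inside and 1224.5 outside, against 714 over all members. In addition, 68 members also met the Drd1 and the Rarb and Pde10a limits of the Drd1 class and were kept out of it only by their Otof and Chst9 UMIs.

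Members carried the genes of neurons that release GABA. Gad1 or Gad2, the enzymes that make GABA, were detected in 88.6% to 96.3% of the members of each library. Gad1 was detected in a mean of 76.4% of members, against 12.9% of oligodendrocyte nuclei (10942 nuclei with at least 5 UMIs of Mog and Mag together), a class that should lack it and that shows the level of free RNA. Rbfox3, which encodes the NeuN protein used for the sort, was detected in 93.7% of members, 92.5% of Drd1 nuclei and 14.2% of oligodendrocyte nuclei, although the sorted nuclei were NeuN-negative by protein. The median depth of the oligodendrocyte nuclei was 4991 to 7256 UMIs. Slc17a7, a vesicular glutamate transporter of excitatory neurons, was detected in 8.96% of members and 6.84% of oligodendrocyte nuclei. Slc17a6, another such transporter, was detected in 4.66% and 2.67%, and was called higher in members than in Drd2 nuclei (0.89, adjusted p = 0.0145), a call lost in 2 of 12 alternatives.

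Most listed identity genes of striatal projection neurons were lower in members. Of the 17 genes of a striatal projection neuron identity list, 2 set the Drd1 gate and 15 were tested. Relative to Drd1 nuclei, 12 of the 15 were lower, 1 was higher, and the median log2 fold change was -0.81, beside -0.00020 over all 10377 genes tested. Across all genes, 17.3% were called, 7.95% higher and 9.38% lower. With the Mog, Mag and Csf1r limits also placed on the Drd1 nuclei, 14 of the 15 were lower and the median was -1.20. Relative to Drd2 nuclei, where 23.4% of 11547 genes were called (11.4% higher, 12% lower), 13 of 15 were lower and 1 was higher. Drd1 and Drd2 nuclei had to hold at least 5 UMIs of Rarb and Pde10a together, and members did not. Between 62.1% and 82.4% of the members of a library met that limit. The gates thus favoured striatal projection neuron genes in the comparison classes, and these counts cannot separate that from other differences. The nuclei are named here by their leading genes. Since the nuclei came from whole brains, the region of each is not known, and nuclei from outside the striatum may be among the members. Both classes of each comparison were picked by UMIs of the same nuclei, so the folds describe the classes as chosen, and the p-values say only whether a difference repeated across libraries.

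Foxp1, a forkhead factor of projection neurons, ranged from 442 to 757 CPM in members (median 589), from 1132 to 1680 in Drd1 nuclei (median 1529) and from 1881 to 2563 in Drd2 nuclei. No library of the members reached any library of the other classes, and the log2 fold change from Drd1 nuclei was -1.28 ± 0.0851 (SE, n = 6 libraries per class, adjusted p = 6.16e-12). In nuclei thinned to 2000 UMIs, Foxp1 was detected in 49.6% of members, 83.4% of Drd1 nuclei and 48.8% of oligodendrocyte nuclei. Scn4b, a sodium channel subunit, was lower by the most among the 15 genes, with 5.36 to 15.2 CPM in members and 31.7 to 66.2 in Drd1 nuclei (log2 fold change -2.21, adjusted p = 1.93e-09). Pde1b, a calmodulin-dependent phosphodiesterase, stood at a median of 54.3 in members and 200.3 in Drd1 nuclei. The exception was Meis2, a homeobox factor of the ventral forebrain, with 1859 to 2415 in members (median 2156) and 1146 to 1520 in Drd1 nuclei (median 1398), a log2 fold change of 0.63 ± 0.0676 (adjusted p = 4.37e-08). Relative to Drd2 nuclei Meis2 was called higher as well, by 0.31, but this became -0.016 once the glial limits applied to both classes.

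Members did not follow the direct and indirect pathway genes together. Drd1 was detected in 24.2% to 42.8% of the members of a library and Drd2 in 0.649% to 9.16%. The mean share with Drd2, 3.84%, was next to that of oligodendrocyte nuclei, 3.78%, and is read as background outside LPA replicate 3. In LPA replicate 3 the share was 9.16%, above the highest oligodendrocyte value of any library, 4.36%. The mean share with Drd1, 33.6%, was above the 2.27% of oligodendrocyte nuclei. Of 9 direct pathway genes, 6 were tested against Drd1 nuclei, and 4 were lower and 0 higher (median -0.93). Over all genes tested against Drd1 nuclei, 9.38% were lower and 7.95% higher. Each comparison class was picked by its own dopamine receptor, so its gate favoured genes that go with that receptor. Tac1, the precursor of substance P, lay at 56.1 to 92.4 CPM in members and 114 to 184 in Drd1 nuclei (log2 fold change -1.04, adjusted p = 1.65e-07). It lay at only 8.89 to 19.4 in Drd2 nuclei (log2 fold change 2.27). Penk, the enkephalin precursor, ran the other way, at 42.0 to 68.2 in members, 11.5 to 28.6 in Drd1 nuclei and 155 to 201 in Drd2 nuclei. Summed over a library, members thus held intermediate levels of both peptide precursors. The log2 fold changes for Penk were 1.35 (adjusted p = 3.76e-07) from Drd1 nuclei and -1.75 (adjusted p = 2.91e-12) from Drd2 nuclei. For either gene the ranges of the 3 classes did not overlap. The sum hides differences among members, since Tac1 was lower in members with Chst9, as given below. Adora2a, the adenosine receptor of the indirect pathway, averaged 8.46 ± 4.04 (SD, n = 6 libraries) in members and 182 ± 24.7 in Drd2 nuclei. Of 7 indirect pathway genes, 4 were tested against Drd1 nuclei, and 3 were higher, namely Penk, the zinc finger factor Sp9 (1.73) and the kainate receptor subunit Grik3 (1.48). Drd2 was the 1 called lower (-0.82, adjusted p = 0.0320), a call lost in 6 of 13 alternatives (-0.71 to -0.96 over all 13).

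**Figure D1:**
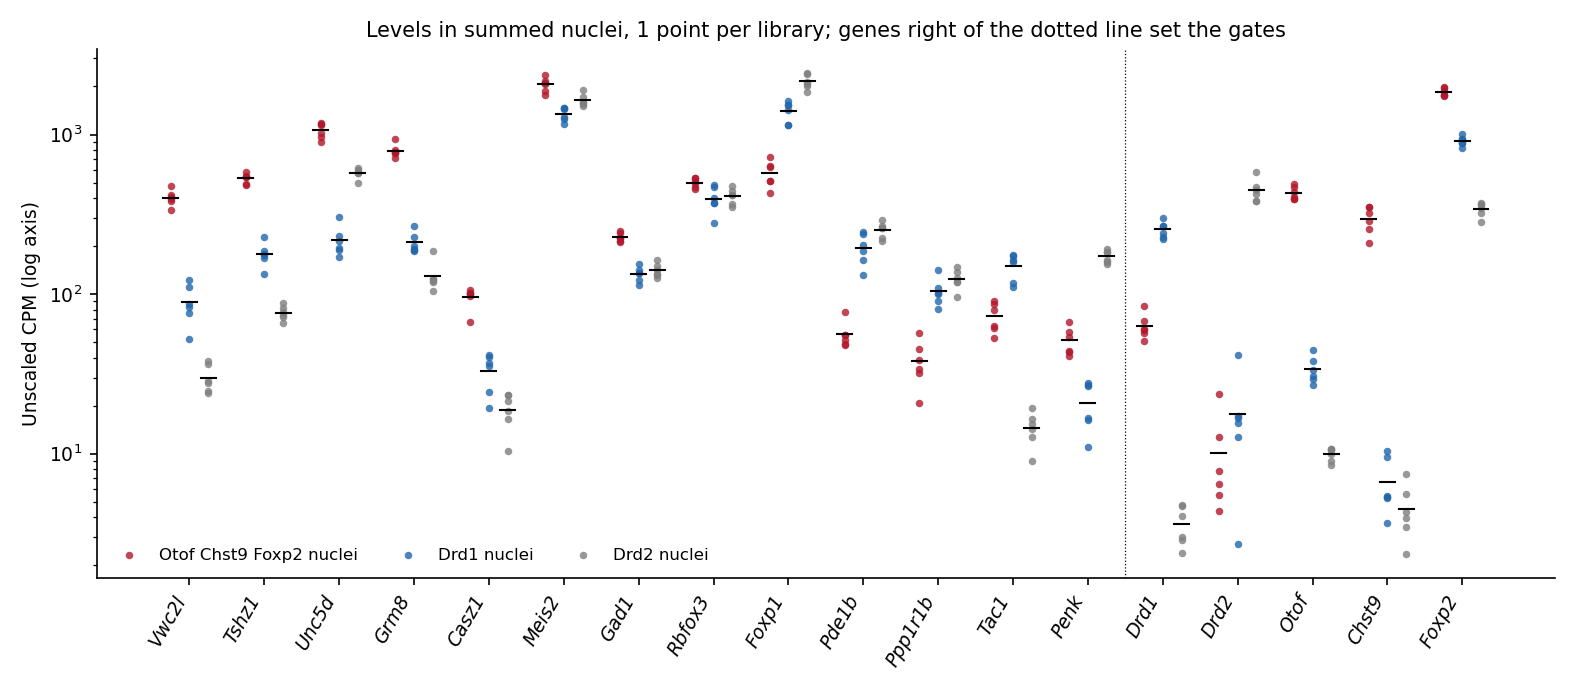
Unscaled CPM (log axis) of 18 genes in the summed members, Drd1 nuclei and Drd2 nuclei of each library, 1 point per library with a bar at the mean of 6. Foxp1, Pde1b and Ppp1r1b sit lower in members than in both other classes, Vwc2l, Tshz1 and Grm8 sit higher, and the genes right of the dotted line set the gates.

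The genes of the third striatal type stood out in the other direction, as far as a list that includes the gate gene Otof and the label's own Tshz1 can show it. All 8 tested genes of the list were higher than in Drd1 nuclei (median 1.60), and 7 of 8 were higher than in Drd2 nuclei (median 2.59). Tshz1, a zinc finger factor of the teashirt family, lay at 506 to 598 CPM in members, 140 to 234 in Drd1 nuclei and 70.2 to 89.6 in Drd2 nuclei. Casz1, another zinc finger factor, lay at 70.1 to 112 in members (median 102) and at 20.2 to 42.1 in Drd1 nuclei (median 36.6), a log2 fold change of 1.52 ± 0.121 (adjusted p = 1.62e-10). Casz1 was detected in 35.0% of members and 3.20% of oligodendrocyte nuclei. Htr7, a serotonin receptor of low level, was higher than in Drd1 nuclei by 1.60 (adjusted p = 0.00106) but not called against Drd2 nuclei (-0.086, adjusted p = 0.793).

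Vwc2l, the other marker of the label that set no gate, was far higher in members. It lay at 353 to 487 CPM in members (median 416), at 55.0 to 127 in Drd1 nuclei (median 85.1) and at 23.7 to 40.1 in Drd2 nuclei (median 29.0). The order of the classes was the same in every library, and the log2 fold changes were 2.21 from Drd1 nuclei and 3.72 from Drd2 nuclei. As a marker in the label, it is given without a p-value. Its paralogue Vwc2, which was in no gate or label, was higher as well, at 72.5 to 112 in members and 14.8 to 30.8 in Drd1 nuclei (log2 fold change 1.94 ± 0.160, adjusted p = 2.99e-10). In a list of 12 secreted BMP antagonists, 7 were tested, and 2 were called higher, namely Vwc2 and the label's own Vwc2l. Fstl4 (-1.47) was among the 2 called lower. Vwc2l is a gene on the plus strand at chr1:70725715-70885397 and Vwc2 one on the plus strand at chr11:11114223-11268931 (GRCm38, GENCODE vM21). The 250 bases before the RefSeq start of each (GRCm38.p6, plus strand, at chr1:70725465-70725714 and chr11:11113766-11114015) are shown because these related genes were higher together.
Vwc2l: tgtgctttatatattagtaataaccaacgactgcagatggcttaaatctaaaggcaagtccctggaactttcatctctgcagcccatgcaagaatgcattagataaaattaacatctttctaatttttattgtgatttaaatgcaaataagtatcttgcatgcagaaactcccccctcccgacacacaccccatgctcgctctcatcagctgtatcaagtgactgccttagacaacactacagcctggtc
Vwc2: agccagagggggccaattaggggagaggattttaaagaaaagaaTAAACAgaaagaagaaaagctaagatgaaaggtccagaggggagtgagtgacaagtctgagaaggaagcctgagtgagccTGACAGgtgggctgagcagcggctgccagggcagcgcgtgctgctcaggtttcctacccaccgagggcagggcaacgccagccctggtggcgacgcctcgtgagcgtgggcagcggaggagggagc
Capitals mark matches, on either strand, to TGTTTA, a core of forkhead sites, and TGACAG, a core of Meis sites, since Foxp2 and Meis2 are abundant here. TAAACA is TGTTTA read on the other strand. The Vwc2l window held no match. TGTTTA occurs in 12% and TGACAG in 15.9% of 32851 mouse promoter windows of this length, so that neither match is rare.

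Of the other genes with the highest log2 fold changes over Drd1 nuclei, Unc5d, a netrin receptor of axon guidance, lay at 917 to 1228 CPM in members (median 1103) and 176 to 297 in Drd1 nuclei (median 214), a log2 fold change of 2.3 ± 0.0844 (adjusted p = 4.63e-17). Against Drd2 nuclei, at 503 to 651, its fold change was only 0.87, so Drd2 nuclei were between the others for Unc5d. Grm8, a presynaptic metabotropic glutamate receptor, lay at 748 to 980 in members, 186 to 277 in Drd1 nuclei and 102 to 187 in Drd2 nuclei. Kcnh5, a voltage-gated potassium channel, lay at 235 to 287 in members and 46.0 to 79.7 in Drd1 nuclei (2.04 ± 0.0962, adjusted p = 7.20e-15). Inpp4b, a phosphoinositide phosphatase, lay at 866 to 1097 in members and 185 to 329 in Drd1 nuclei (2.10 ± 0.0780, adjusted p = 4.91e-17). The classes did not overlap for these genes, which were picked for moving alike in all libraries. Ptpn3 (2.35), a tyrosine phosphatase, Zfp804b (2.25), a zinc finger gene, Pcdh8 (2.22), a protocadherin, Cpne7 (2.18), a copine, Sphkap (2.14), an anchor of protein kinase A, and Cacng5 (2.08), an AMPA receptor auxiliary subunit, completed the 12 genes picked by size. All 12, the label's own Vwc2l among them, stayed called in each alternative run that tested them. That was 20 runs for Pcdh8 and 21 for each other gene. They were picked from calls on largely the same nuclei, so this is no separate support.

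Among listed gene families, members differed from Drd1 nuclei in both directions. Over all genes tested, 7.95% were higher and 9.38% lower. The family counts are given without the Mog, Mag and Csf1r limits on the Drd1 nuclei. Drd1 nuclei held more oligodendrocyte RNA than members, as given below, and the lower calls here are not separated from it. Of 31 potassium channel genes tested, 13 were higher and 4 lower (median 0.20), among them Kcnj6 (1.78) and Kcnj3 (1.67), inward rectifiers opened by G proteins, Kcnc2 (1.27) and, lower, Kcnip2 (-1.01). Of 37 axon guidance genes, 12 were higher and 19 lower (median -0.31), with Ntng1 (1.71), Epha3 (1.59) and Epha6 (1.34) among the former and Epha4 (-1.12) and Slit3 (-0.82) among the latter. Of 21 cadherins and protocadherins, 8 were higher and 10 lower. Serotonin receptors split into 3 higher and 1 lower of 5, with Htr1f at 1.39 and Htr2c at -1.71. Of 17 carbohydrate sulfotransferases beside Chst9, 1 was higher and 5 were lower. Hs6st3 (-1.0), Hs3st4 (-0.97) and Hs3st5 (-0.96) were among the latter, and were named after their values were seen. Of 14 ferlins and synaptotagmins beside Otof, 4 were higher and 0 lower. The cannabinoid receptor Cnr1 was lower (-1.74), and the GABA-A receptor subunit Gabra3 was higher (1.56).

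Ventral forebrain transcription factors gave as many higher as lower calls, 9 each of 27 tested, beside 7.95% higher and 9.38% lower over all genes. This count and that of immature neuron genes below are also given without the Mog, Mag and Csf1r limits on the Drd1 nuclei. Pax6, a paired-box factor, lay at 28.0 to 45.8 CPM in members and 6.25 to 20.9 in Drd1 nuclei (log2 fold change 1.40 ± 0.236, adjusted p = 5.06e-05), and was detected in 17.5% of members against 5.69% of oligodendrocyte nuclei. Nfib (1.08) and Pbx3 (0.86) were higher, and Zfhx3 (-1.07) was lower. Zeb2 was called lower at -1.26, which became 0.020 once the glial limits applied to both classes. Of 5 genes of immature neurons, 3 were higher, namely Igfbpl1 (1.38), the microtubule protein Dcx (1.05) and Dlx6os1 (0.85). Gad1 was higher, at 212 to 255 in members and 117 to 163 in Drd1 nuclei (0.77 ± 0.0813, adjusted p = 2.70e-08), whereas Gad2 was not called (-0.08, adjusted p = 0.539). Gad2 was called lower in 4 of 21 alternatives, by most with the glial limits on both classes (-0.36, adjusted p = 0.000658).

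The genes that were lower by the most included genes of myelin, on which the class rules bear directly. Mbp, a myelin protein, lay at 181 to 263 CPM in members and 1007 to 1705 in Drd1 nuclei. The summed level of the 8 genes of the oligodendrocyte list was 625 ± 111 unscaled CPM in members (SD, n = 6 libraries) and 3092 ± 770 in Drd1 nuclei, with Mbp the most abundant in both. All 6 tested genes of this list were lower than in Drd1 nuclei. When the Mog, Mag and Csf1r limits applied to both classes, 1 of 5 tested was lower (median -0.21). Of the 12 genes picked as lower by the most (Cldn14, Myo3b, Prr5l, Cnksr3, St18, Sec14l5, Mbp, Prkch, Fa2h, Mobp, Elovl7 and Rnf220), 9 could be tested under those limits and 3 were called, namely Myo3b (-3.40), a myosin, Prkch (-2.78), a protein kinase C, and Mbp (-0.26). Under the same limits 8 of 8 genes of the third striatal type were still higher (median 1.46), and 1563 of 9089 genes were called (17.2%, with 8.37% higher and 8.82% lower). Lpar1, an LPA receptor of oligodendrocytes, moved from -1.5 to 0.064, and Enpp2, the enzyme that makes LPA, from -1.64 to -0.25. Astrocyte genes, by contrast, gave 0 calls of 8 tested by edgeR (median -0.12), with summed levels of 1664 ± 160 in members and 1901 ± 300 in Drd1 nuclei and Slc1a2 as the most abundant, so that astrocyte RNA was present in both classes at similar levels.

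**Figure D2:**
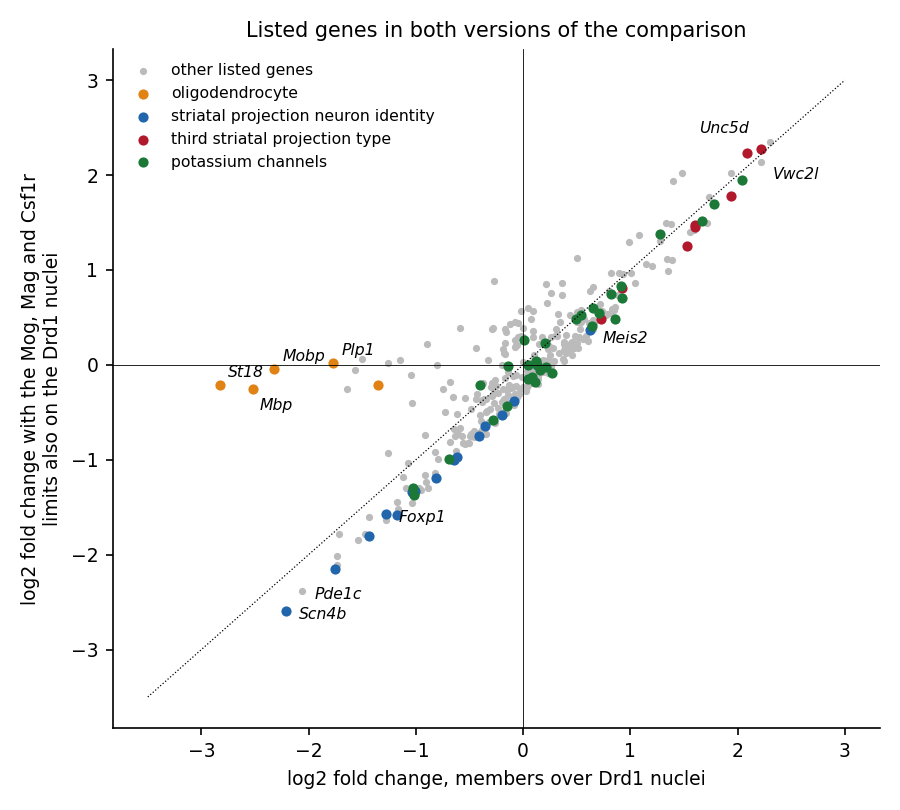
Log2 fold change of members over Drd1 nuclei for listed genes (x axis), against the same fold change when the Mog, Mag and Csf1r limits also applied to the Drd1 nuclei (y axis), 1 point per gene, with the line of equal values dotted. Oligodendrocyte genes move to near 0 (Mbp from -2.52 to -0.26), while genes of the striatal identity list and the third striatal type stay on their side.

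Members varied among themselves with Chst9. The following split uses a gene of the gate, was made after its values were seen, and carries no test. Members with no Chst9 UMI, which needed at least 3 Otof UMIs to enter, numbered 327, members with 2 or more numbered 422, and 103 had exactly 1. Zfp804b averaged 248.9 ± 114 unscaled CPM (SD, n = 6 libraries) in members without Chst9 and 1047 ± 229 in those with 2 or more. Grm8 averaged 305 ± 68.0 and 1183 ± 148, and Kcnh5 averaged 115 and 353. In all 6 libraries these genes were higher in the Chst9-bearing members, as were Inpp4b (464 and 1330), Htr1f (213 and 612) and Pax6 (16.2 and 48.9). Tac1 ran the other way, with 138 ± 38.2 without Chst9 and 28.1 ± 14.6 with it. The guidance cue Slit3 averaged 871 ± 96.9 and 192 ± 24.7, Adcy5, the adenylyl cyclase of striatal neurons, 422 and 141, and Ppp1r1b, the dopamine signalling protein DARPP-32, 61 and 20.4. Each was lower with Chst9 in 6 of 6 libraries, as was Casz1 (154 and 54.8). Pde10a (2156 and 803) and Rarb (845 and 359) followed the same order. Foxp2 differed little, at 1846 and 1870. Of the 15 striatal identity genes outside the gate, 12 were not higher with Chst9 in any library, 2 were mixed, and Meis2 was higher (1650 and 2387). Of the 8 genes of the third striatal type outside the gate, 4 were higher with Chst9 in every library, Tshz1 among them (399 and 622). Of the rest, 2 were not higher in any library and 2 were mixed. Other lists held such genes too. Of 39 axon guidance genes, 6 were higher in every library and 12 in none. For 24 phosphodiesterases and adenylyl cyclases these counts were 3 and 8. The share over all genes is not given for this split, so the counts only describe the lists.

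**Figure D3:**
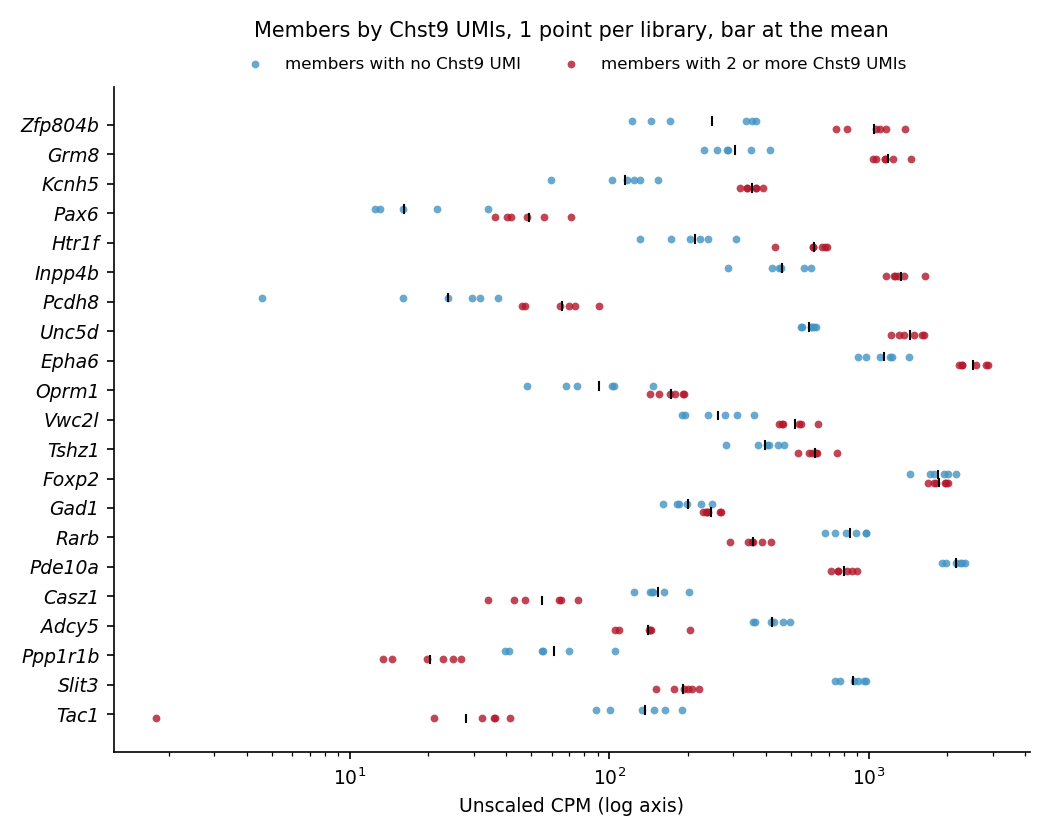
Unscaled CPM (log axis) of 21 genes in members with no Chst9 UMI and members with 2 or more, 1 point per library and class, with a bar at the mean. Zfp804b to Pax6 at the top lie higher with Chst9 and Tac1 and Slit3 at the bottom lower, with no overlap between the classes for these, while Foxp2 overlaps; 1 library at 0 for Pax6 without Chst9 is not drawn.

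LPA and vehicle libraries were compared next. Of the kept nuclei, members made up 1.60%, 1.5% and 1.44% in the LPA libraries and 1.70%, 1.30% and 1.07% in the vehicle libraries. The groups overlapped, with means of 1.51 ± 0.0787% and 1.36 ± 0.320% (SD, n = 3), and the difference of 0.154 percentage points gave p = 0.5 in a two-sided exact permutation test, where the smallest p for 3 against 3 is 0.1. For each 100 Drd1 nuclei there were 158, 252 and 158 members in LPA libraries and 119, 161 and 142 in vehicle libraries (difference 48.8, exact permutation p = 0.3). One LPA library, replicate 2, set most of that difference, which was 17.4 without it. Without vehicle replicate 1 the difference in the share was 0.327 percentage points, and without vehicle replicate 3 it was 0.0112.

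**Figure D4:**
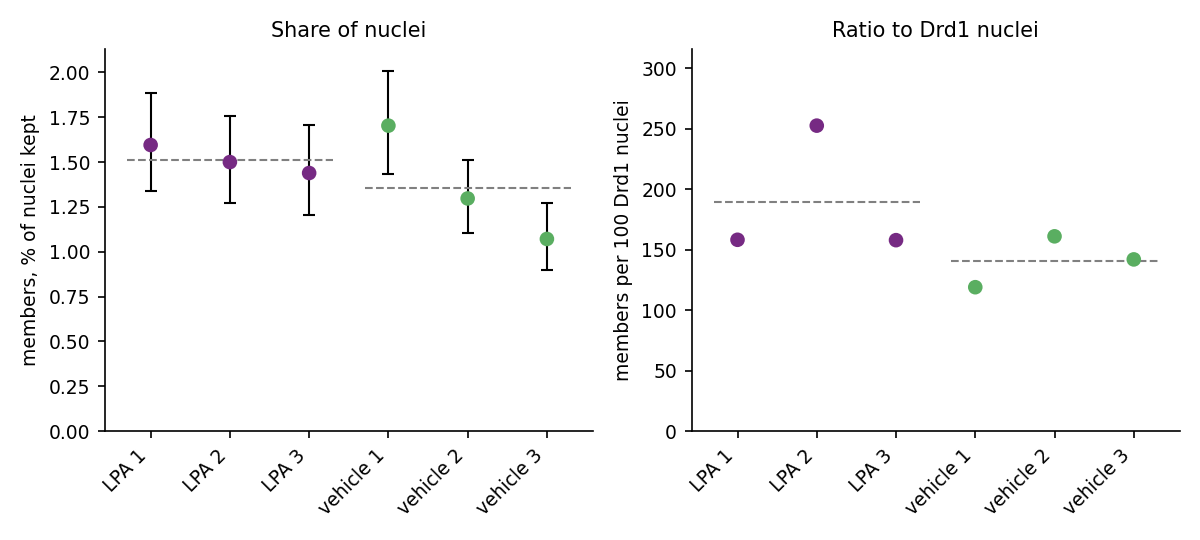
Members as a percent of all kept nuclei with exact 95% binomial intervals for counting error (left) and members for each 100 Drd1 nuclei (right), 1 point per library, dashed lines at the group means. LPA and vehicle libraries overlap in both panels, and LPA replicate 2 stands above the rest at 252 in the right panel.

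Within members, LPA libraries differed from vehicle libraries in 9 of 10473 genes tested (0.0859%), 1 higher (0.00955%) and 8 lower (0.0764%). Of the 8 lower genes, 7 are encoded by the mitochondrial genome. The cytochrome oxidase gene mt-Co3 lay at 54.0, 70.0 and 84.5 CPM in LPA libraries and at 203, 174 and 233 in vehicle libraries (log2 fold change -1.54 ± 0.145, adjusted p = 1.49e-06). The values for mt-Co2 (-1.68), mt-Co1 (-1.39), mt-Atp6 (-1.71), mt-Nd4 (-1.69), mt-Nd2 (-1.57) and mt-Cytb (-1.24) were of similar size, and 7 of 9 tested mitochondrial genes were lower, with a median of -1.54 beside -0.00093 over all genes tested. The calls of mt-Co3, mt-Co2, mt-Co1 and mt-Nd2 held in all 19 alternatives, those of mt-Atp6 and mt-Nd4 in 18, and that of mt-Cytb was lost in 8 (-1.04 to -1.67 over all 19), among them leaving out LPA replicate 1, vehicle replicate 1 or vehicle replicate 3. The drop was not particular to members. Summed over 13 mitochondrial genes, unscaled CPM were 220, 327 and 380 in members of LPA libraries and 911, 766 and 1095 in members of vehicle libraries, while all kept nuclei gave 245, 346 and 548 against 1029, 755 and 1035. Over all barcodes, with no mitochondrial limit, the sums were 619, 812 and 1130 against 1922, 1295 and 1773, so the libraries themselves differed. Mitochondrial RNA in a nucleus library comes from outside the nucleus, and the part of nucleus preparation in this difference was not tested.

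Cst3, which encodes the secreted protease inhibitor cystatin C, was the remaining lower gene, at 143, 96.5 and 141 in LPA libraries and 209, 210 and 200 in vehicle libraries (-0.71 ± 0.126, adjusted p = 0.0103). This call was lost in 9 of 19 alternatives, among them leaving out LPA replicate 2 (-0.54), vehicle replicate 1 or vehicle replicate 2, the upper UMI limit and the stricter gate, and the log2 fold change was -0.54 to -0.90 over all 19, with adjusted p-values of up to 0.511. The 1 higher gene was Cemip at chr7:83932857-84086502, which encodes a protein that binds and breaks down hyaluronan. Cemip lay at 87.7, 84.1 and 79.8 in members of LPA libraries and at 37.5, 41.4 and 42.7 in members of vehicle libraries (1.05 ± 0.162, adjusted p = 0.0015). The groups did not overlap. A Cemip UMI was found in 24.3%, 27.3% and 30.5% of members of LPA libraries and in 20.3%, 17.4% and 15.2% of members of vehicle libraries, against 3.90% to 7.37% of oligodendrocyte nuclei.

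Within members, Cemip was higher in nuclei with UMIs of meningeal genes. The part of meningeal RNA in its difference between LPA and vehicle was not tested. The summed vascular and meningeal list (9 genes, none at 0 in any library, Slc6a20a the most abundant) was 113, 234 and 162 unscaled CPM in members of LPA libraries and 214, 225 and 208 in those of vehicle libraries. Members with any UMI of the meningeal genes Col1a2, Dcn or Slc6a20a had 197, 221 and 172 unscaled CPM of Cemip with LPA and 53.8, 79.1 and 93.0 with vehicle. Members with no such UMI still had 66.8, 52.2 and 50.03 with LPA and 33.3, 26.6 and 30.2 with vehicle, with no overlap, and a log2 fold change of 0.95 that no longer passed the adjustment (adjusted p = 0.127). The call was also lost with an upper limit on UMIs per nucleus, a stricter gate, both Otof and Chst9 required, or astrocyte-bearing nuclei left out, with log2 fold changes of 0.86 to 1.16 over these.

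The Drd1 nuclei of the same libraries gave 15 calls of 9763 genes (0.154%) between LPA and vehicle, 1 higher (0.0102%) and 14 lower (0.143%). There, Cemip was lower rather than higher, at 27.1, 24.2 and 24.6 unscaled CPM with LPA and 59.6, 60.8 and 52.9 with vehicle (log2 fold change -1.14, adjusted p = 0.0214), a call lost in 9 of 15 alternatives, with log2 fold changes of -0.84 to -1.19 over all 15. The shares of Drd1 nuclei with a Cemip UMI overlapped, at 12.8%, 18.0% and 16.9% with LPA and 20.7%, 19% and 12.9% with vehicle. Over all kept nuclei it was lower as well, with 42.1 to 55.1 against 65.9 to 74.3. The test of the difference between the LPA effects in members and in Drd1 nuclei called 5 of 11273 genes (0.0444%), 4 higher (0.0355%) and 1 lower (0.00887%), of which Cemip had the smallest p (difference of log2 fold changes 2.20 ± 0.256, adjusted p = 4.11e-05). That call was lost without the nuclei that held a meningeal UMI (1.83, adjusted p = 0.320) and with an upper limit on UMIs per nucleus (1.80, adjusted p = 0.163). In Drd1 nuclei the vascular and meningeal list summed to 105, 107 and 104 with LPA and 274, 266 and 156 with vehicle. Without the Drd1 nuclei that held a meningeal UMI, the log2 fold change of Cemip in the class was -0.92 (adjusted p = 0.693). Cemip in all Drd1 nuclei rested on 22, 14 and 23 UMIs with LPA and 75, 69 and 39 with vehicle. The part of meningeal RNA in its difference there was not tested.

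**Figure D5:**
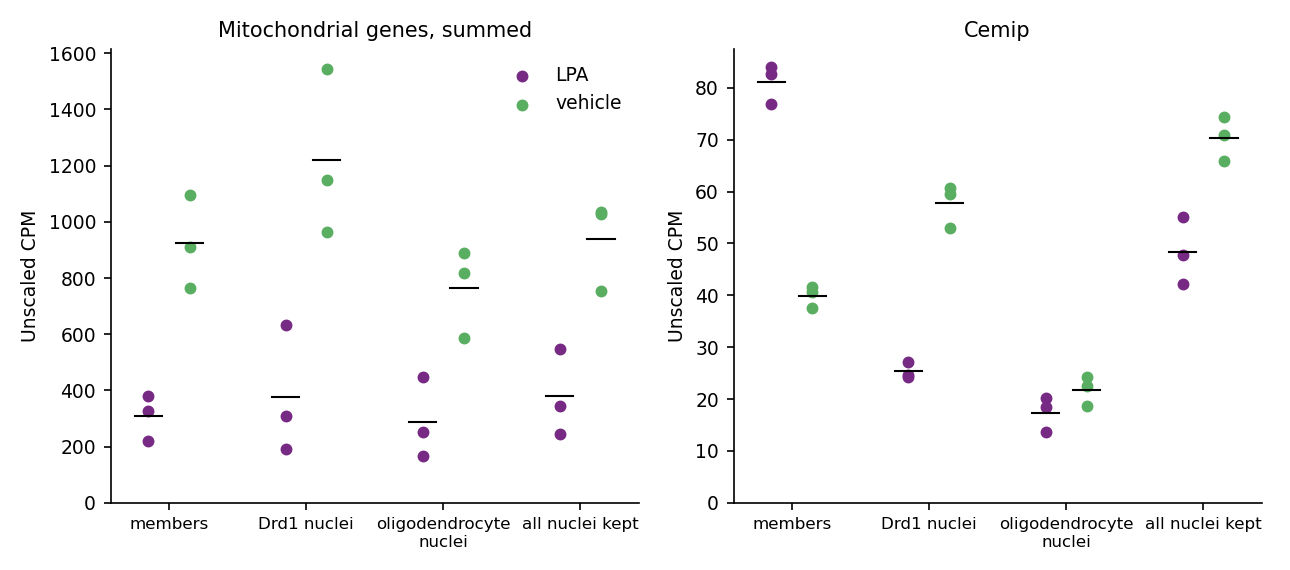
Summed mitochondrial genes (left) and Cemip (right) in unscaled CPM for members, Drd1 nuclei, oligodendrocyte nuclei and all kept nuclei, 1 point per library with a bar at the mean of 3. Mitochondrial RNA is lower with LPA in every class, whereas Cemip is higher with LPA in members and lower in Drd1 nuclei.

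Of the 482 genes in 41 lists, 354 outside the gate were tested in members and 0 were called by edgeR, with 44 at an unadjusted p under 0.05 (574 of all 10473 genes), and 1, Hs6st3, was called by DESeq2. Hs6st3, a heparan sulfate sulfotransferase, lay at 777, 701 and 794 CPM with LPA and at 636, 506 and 476 with vehicle (0.49, adjusted p = 0.111 by edgeR). It was called in 4 of 19 alternatives, namely DESeq2, no filter on low counts, the replicate block (adjusted p = 0.0261) and without vehicle replicate 1. The complement gene C4b, at 15.2, 14.2 and 11.3 with LPA and 5.48, 0.862 and 2.67 with vehicle, had the highest fold among the genes nearest to the threshold (2.14, adjusted p = 0.164), on few UMIs. On simulated counts like these, 68.5% of genes changed by 1 on the log2 scale were called, so that a change of that size in a given gene could have been missed.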

How the data were processed

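Nuclei of 6 brains were profiled with the 10x Genomics 3' v3 kit. The authors aligned and counted reads with Cell Ranger 4.0.0 on a pre-mRNA mm10 reference (per the labels and the study's methods) and deposited raw UMI counts of 32285 genes per barcode, which were used unchanged. UMIs were summed per library and class and tested with edgeR 4.0.16 (R 4.3.3): counts per 1000000 UMIs (CPM), TMM, filterByExpr, quasi-likelihood F-test, Benjamini-Hochberg adjustment, with the library as a term between classes. DESeq2 1.42.0 was an alternative. Gate genes were left out of calls. The members, gene lists and tests were chosen with earlier results of these data known. Named genes were those in the label and a fixed set of transmitter, receptor and peptide genes, the 12 called genes with the highest and the 12 with the lowest log2 fold change that moved alike in 6 of 6 libraries at a mean of at least 50 CPM in members or Drd1 nuclei, and the LPA calls, with the genes nearest to the threshold; other list genes were named after their values were seen.

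No doublet caller was run. The gate allowed at most 2 UMIs of Mog and Mag together and 0 of Csf1r, with no limit on other glial genes, and alternatives left out nuclei with several glial or glutamatergic UMIs or very high totals. Between 268 and 303 barcodes were shared by each pair of libraries, 7 members among them, and leaving them out was a further alternative. Shares of nuclei in which a gene was detected are given without thinning, so depth differed between classes. Only the shares for Foxp1 come from nuclei thinned to 2000 UMIs. Thinned nuclei were also an alternative in the comparisons between classes. Intervals cover counting error only. Between LPA and vehicle, the p-values measure the spread between libraries of 1 brain each. Between classes, and for the difference of LPA effects, the library was a term of the fit. Those p-values measure how far the difference between classes varied from library to library. On simulated data, the fits recovered 84.5% (10176 genes, members against Drd1 nuclei), 91.0% (11388, against Drd2 nuclei), 68.5% (10255, LPA in members), 62.0% (9500, LPA in Drd1 nuclei) and 34.5% (11031, difference of LPA effects) of 200 genes changed by 1 on the log2 scale. Some called genes are not reported here.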

Additional observations from a re-analysis of the deposited data

Results flagged for a closer look

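The LPA effect of 5 genes differed between members and Drd1 nuclei in edgeR's test of the difference itself (4 are given here), with n = 3 libraries per treatment. Cemip, described above, had a difference of 2.20 on the log2 scale, higher in members and lower in Drd1 nuclei, and this call was lost in 2 of 18 alternatives. Lrrk1, a kinase of the LRRK family, had a difference of 2.24 (adjusted p = 0.0186), with 16.9, 28.4 and 29.2 CPM in members with LPA and 12.7, 18.0 and 12 with vehicle, against 8.84, 8.88 and 14.7 and 34.9, 36.6 and 18.0 in Drd1 nuclei. It was not called in 11 of 16 alternatives (1.09 to 2.43 over all 16), among them DESeq2 and each fit without 1 library except that without vehicle replicate 3. Nwd2, a gene with WD repeats, went the other way by -2.33 (adjusted p = 0.00737). Its levels in members were 67.6, 19.5 and 33.9 with LPA and 141, 55.7 and 34.6 with vehicle, which overlapped, and in Drd1 nuclei 72.0, 49.7 and 133 against 35.7, 29.6 and 33.2. This call was lost in 9 of 18 alternatives, among them DESeq2, leaving out LPA replicate 3 or vehicle replicate 1, and leaving out astrocyte-bearing nuclei (-0.22).

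Ptgds, a prostaglandin D synthase of oligodendrocytes and the meninges, had a difference of 1.5 (adjusted p = 0.00786), with 156, 186 and 69.6 against 170, 113 and 79.8 in members, and 30.3, 65.7 and 42.8 against 162, 99.3 and 96.9 in Drd1 nuclei. In members the LPA and vehicle libraries overlapped, and in Drd1 nuclei they did not. Without the nuclei that held at least 10 UMIs of the astrocyte transporters Slc1a2 and Slc1a3 together, the difference was -0.30. The call held in 8 of 18 alternatives.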

How the results depend on the processing

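Between members and Drd1 nuclei, 1798 calls became 842 after thinning nuclei and 1073 with DESeq2, and between members and Drd2 nuclei 2706 became 1564 after thinning. For LPA in members, 9 calls became 43 with no filter on low counts and 9 to 16 when leaving out 1 library, 16 without LPA replicate 1. For LPA in Drd1 nuclei, 15 calls became 6 with an upper UMI limit, 7 without possible doublets, 8 without astrocyte-bearing and 9 without meningeal-UMI nuclei (both alternatives chosen after seeing the data), 130 with no filter, 7 with DESeq2, and 4 to 38 when leaving out 1 library, 38 without vehicle replicate 3. The 5 differences in LPA effect became 0 with an upper UMI limit (edgeR, 434 at an unadjusted p under 0.05) and 0 without meningeal-UMI nuclei (433), 2 with the stricter gate, 1 with Otof and Chst9 each required, 3 without possible doublets, 2 in GABA nuclei, 3 without astrocyte-bearing nuclei, 29 with no filter, 1 with DESeq2 and 1 to 8 when leaving out 1 library, 1 without vehicle replicate 1 and 8 without LPA replicate 2. Why these counts moved was not tested.

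A replicate block gave 12 calls for LPA in members and 35 in Drd1 nuclei. Same-numbered LPA and vehicle libraries had correlated deviations of 0.0967, 0.0936 and -0.0325 (Pearson r across genes), or 0.0109, 0.00124 and 0.0175 without sex-linked genes, and over all genes LPA replicate 3 correlated better with vehicle replicate 2, so the numbers were not taken as pairs. Without the library as a block, 1660 genes were called against Drd1 nuclei and 2534 against Drd2 nuclei.

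Directions reversed for few named genes. Against Drd1 nuclei, Rnf220 became 0.071 without possible doublets and 0.29 with the glial limits, Gad2 0.10 in GABA nuclei, and Slc17a7 -0.0064 with the glial limits. Against Drd2 nuclei, with the glial limits, Rbfox3 became -0.025, Meis2 -0.016 and Gad2 -0.27 (adjusted p = 0.00176, past both thresholds), and Slc17a7 became -7.37 in GABA nuclei, whose selection removes it. Gad2 was also -0.21 with an upper UMI limit, -0.20 with Otof and Chst9 each required, -0.18 without possible doublets, -0.12 after thinning, -0.085 without astrocyte-bearing nuclei, -0.050 without meningeal-UMI nuclei and -0.0083 with no filter. For LPA in Drd1 nuclei, Nwd2 became -0.026 without astrocyte-bearing nuclei. For the difference of LPA effects, Ptgds became -0.30 without astrocyte-bearing nuclei and -0.77 without meningeal-UMI nuclei. The shares kept their direction in every alternative run. A planned comparison of members with only Drd1 and only Drd2 was not run, since just 1 library held 5 of the latter.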

Other observations

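Among members, 548 held neither a Drd1 nor a Drd2 UMI, 272 held Drd1 only, 19 Drd2 only and 13 both. The opioid receptor Oprm1, a marker of striatal patches, was called higher in members than in Drd1 nuclei by 0.45, which fell to 0.10 with the glial limits on both classes. In members with no Chst9 UMI it averaged 90.8 unscaled CPM and in those with 2 or more 172, with the same order in 6 of 6 libraries.

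Xist was at 0 in the members of LPA replicate 1, vehicle replicate 1 and vehicle replicate 3, and at 1802, 1958 and 2047 unscaled CPM in LPA replicate 2, LPA replicate 3 and vehicle replicate 2. The libraries therefore came from mice of both sexes, with males 1 of 3 in the LPA group and 2 of 3 in the vehicle group, and the sexes were not part of any fit.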
